A study of Caenorhabditis elegans with 3 samples.

Results

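Genes for translation factors and for aminoacyl-tRNA synthetases were examined in peak lists of chromatin precipitated with GFP-tagged BED-3 from Caenorhabditis elegans embryos. A protein-coding gene was a member when its symbol began with eif-, eef- or iff-, or was 1 letter followed by ars- and a number. Of 19985 protein-coding genes in the Ensembl annotation of WBcel235, 65 met this rule, and the other 19920 served for comparison. The members were 25 eif- genes, 8 eef- and iff- genes, 21 synthetase genes numbered 1 or 3 and 11 synthetase genes numbered 2. The number in a synthetase symbol does not give the compartment, since RefSeq names the product of aars-1 as mitochondrial and that of aars-2 as cytoplasmic.

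The series held 1 group of 3 biological replicates, numbered 1, 3 and 4, and no group to contrast it with. Worms of strain OP651 are unc-119(tm4063) mutants that carry wgIs651, a transgene with bed-3 fused to TY1, EGFP and 3xFLAG tags together with unc-119(+), so they hold further copies of bed-3. Whole mixed-stage embryos of both sexes were collected by bleaching, with an age given as 4 h, their chromatin was sonicated with a size range of 200 to 800 bp, and an anti-GFP antibody was used. Each replicate has its own peak list, the authors also called peaks on the 3 alignments merged (the pooled list), and replicates 3 and 4 with this pooled list gave an optimal list of 589 peaks. All lists used 1 control alignment, which was not analysed here, and no precipitation from untagged worms was analysed, so a peak is not shown to be a site of BED-3 binding. Peak lists hold no expression values, so the embryo label could not be checked against marker genes.

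Protein synthesis begins when initiation factors bring the small ribosomal subunit, the initiator tRNA and an mRNA together. The factor eIF3 is a scaffold of many subunits on the small ribosomal subunit, eIF2 carries the initiator tRNA, and eIF2B reloads eIF2 with GTP. The elongation factor eEF1A then delivers charged tRNAs, eEF2 moves the ribosome along the mRNA and eIF5A, encoded by the iff- genes, helps at difficult peptide bonds. Aminoacyl-tRNA synthetases join each amino acid to its tRNA, in the cytoplasm and in mitochondria. BED-3 is a zinc finger protein known from vulval and epidermal cell divisions and from moulting.

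Sequence at the summit of the highest pooled peak is shown for 6 of the 8 members with the highest pooled signal, so that strong peaks of members can be compared base by base, while eif-3.C and eif-3.J are described by their values only. Each sequence is 101 bp long, centred on the summit, read from the RefSeq genome sequence of WBcel235 (ce11) and printed 5′ to 3′ on the gene's own strand, which is the minus strand for all 6. The ranges are chrIV:390449-390549 for ears-2, chrII:8561358-8561458 for iff-2, chrIII:6972054-6972154 for eef-1A.1, chrIII:8971688-8971788 for eif-3.D, chrIV:11635762-11635862 for mars-1 and chrII:6968356-6968456 for eif-2Bgamma. Capitals mark matches to any of 6 motifs that were searched on both strands: GTTCGA from tRNA genes, the E-box CACGTG, the repeat GCGCGC, the GATA-type site AGATAA, the octamer TTGCATCA and the repeat GAGAGA.
ears-2: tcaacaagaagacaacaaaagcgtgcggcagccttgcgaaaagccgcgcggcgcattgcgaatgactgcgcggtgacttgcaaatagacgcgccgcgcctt
iff-2: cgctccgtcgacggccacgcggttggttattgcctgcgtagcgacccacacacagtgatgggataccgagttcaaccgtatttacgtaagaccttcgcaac
eef-1A.1: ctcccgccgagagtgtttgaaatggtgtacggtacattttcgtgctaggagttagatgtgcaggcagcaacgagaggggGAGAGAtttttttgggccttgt
eif-3.D: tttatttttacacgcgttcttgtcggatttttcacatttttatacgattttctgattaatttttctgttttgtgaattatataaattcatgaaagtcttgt
mars-1: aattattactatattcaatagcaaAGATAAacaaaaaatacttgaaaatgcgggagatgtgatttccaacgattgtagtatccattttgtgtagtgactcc
eif-2Bgamma: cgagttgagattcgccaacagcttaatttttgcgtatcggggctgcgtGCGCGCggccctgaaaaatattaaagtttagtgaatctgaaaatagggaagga
The 6 sequences share no searched motif. They range widely in base composition, with a GC content of 58.4% at ears-2, 56.4% at iff-2, 50.5% at eef-1A.1, 45.5% at eif-2Bgamma, 30.7% at mars-1 and 24.8% at eif-3.D.

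For every gene, the peak with the highest signal was taken whose summit lay from 1000 bp upstream to 200 bp downstream of any annotated 5′ end of the gene, called the window here. Signal is the authors' own value per peak, and the lists were scaled separately, so values are compared only within a list. The highest peak was taken in each list separately, so values of a gene in different lists can come from different summits. In the pooled list 42 of the 65 members had a window peak (64.6%), against 37.4% of other coding genes. The optimal list gave 6 members (9.23%), against 2.07% of other coding genes. These 6 were the synthetase gene ears-2, the eIF3 subunit genes eif-3.C, eif-3.D and eif-3.J, the eIF5A gene iff-2 and the eEF1A gene eef-1A.1.

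The replicates' own lists, which hold no reads of one another, gave the same order. Replicate 1 had a window peak at 40 members (61.5%), against 36.2% of other coding genes. In replicate 3 the count was 39 (60.0%), against 39.1%, and in replicate 4 it was 45 (69.2%), against 37.0%. The mean over replicates was 63.6% ± 4.95 for members and 37.4% ± 1.47 for other coding genes (SD, n = 3 each). The lowest share of members in any replicate was thus above the highest share of other coding genes.

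Among strong peaks both shares were smaller. Of the members, 10 (15.4%) had a window peak among the 1000 highest of replicate 1, against 3.06% of other coding genes. The same count was 10 (15.4%) in replicate 3, against 2.88%, and 8 (12.3%) in replicate 4, against 3.14%. The means were 14.4% ± 1.78 for members and 3.03% ± 0.134 for other coding genes (SD, n = 3 each). In all 3 replicates at once, 4 members (6.15%) were among the 1000 highest, against 1.33% of other coding genes. The 4 were ears-2, eif-3.C, iff-2 and eef-1A.1. In at least 1 replicate 16 members (24.6%) were, against 5.41%. The lists share 1 control alignment and come from 1 strain, so the replicates are not independent of either, and the design has no group with which to test these shares.

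**Figure D1:**
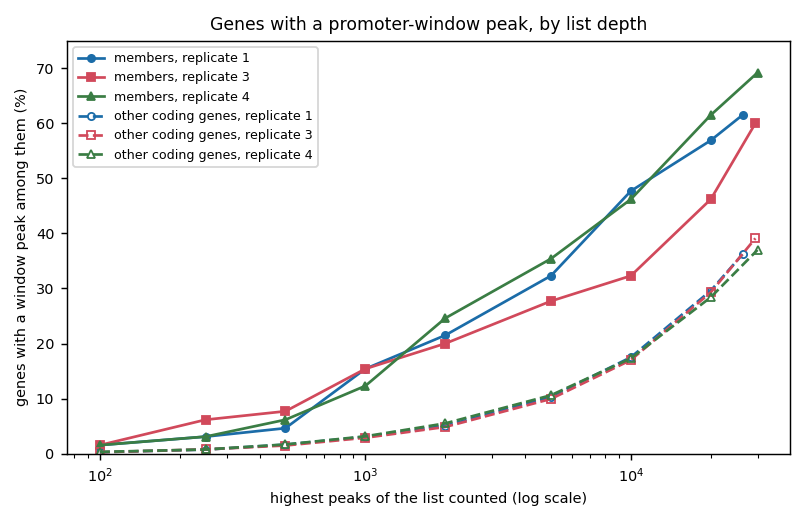
Share of genes with a window peak (y axis, %) among the highest peaks of each replicate's list (x axis, number of peaks counted, log scale). Filled symbols with solid lines are the 65 members and open symbols with dashed lines the 19920 other coding genes, and at the 1000 highest peaks members lie between 12.3% and 15.4% against 2.88% to 3.14%.

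The ratio of the members' share to that of other coding genes moved up and down among the highest peaks and fell beyond the 2000 highest. In the pooled list it was 5.57 within the 100 highest peaks, where it rested on 1 member, then 4.01 within 250, 4.51 within 500, 4.57 within 1000 and 5.06 within 2000. It was 3.18 within 5000, 2.37 within 10000 and 1.73 over all 30000. The replicate lists gave ratios of 5.02, 5.35 and 3.92 within their 1000 highest peaks and 1.70, 1.54 and 1.87 over the whole list, in replicates 1, 3 and 4. Among the highest peaks these rested on few members and varied, between 2.84 and 6.01 in replicate 1, 4.13 and 8.06 in replicate 3, and 3.70 and 5.02 in replicate 4 over the 2000 highest. At full depth, peaks in the window of any gene were common.

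Members differed widely among themselves. A window peak was present in every replicate at 26 members (40.0%), against 14.4% of other coding genes. Such a peak was present in 2 replicates at 16 of the 65 members, against 19.5% of other coding genes. In 1 replicate alone it was present at 14 of the 65, against 30.1%. No replicate had one at 9 members (13.8%), against 36.0% of other coding genes. Ranked by highest window signal among all coding genes, with genes lacking a peak tied at percentile 31.3, the median member stood at percentile 76.8 in the pooled list. The median other coding gene stood at 31.3, which is the level of no peak. In the replicates the members' median was 76.8, 66.8 and 76.0, against 31.9, 30.4 and 31.4 for other coding genes. Above percentile 90 in the pooled list lay 22 members (33.8%), against 9.92% of other coding genes.

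**Figure D2:**
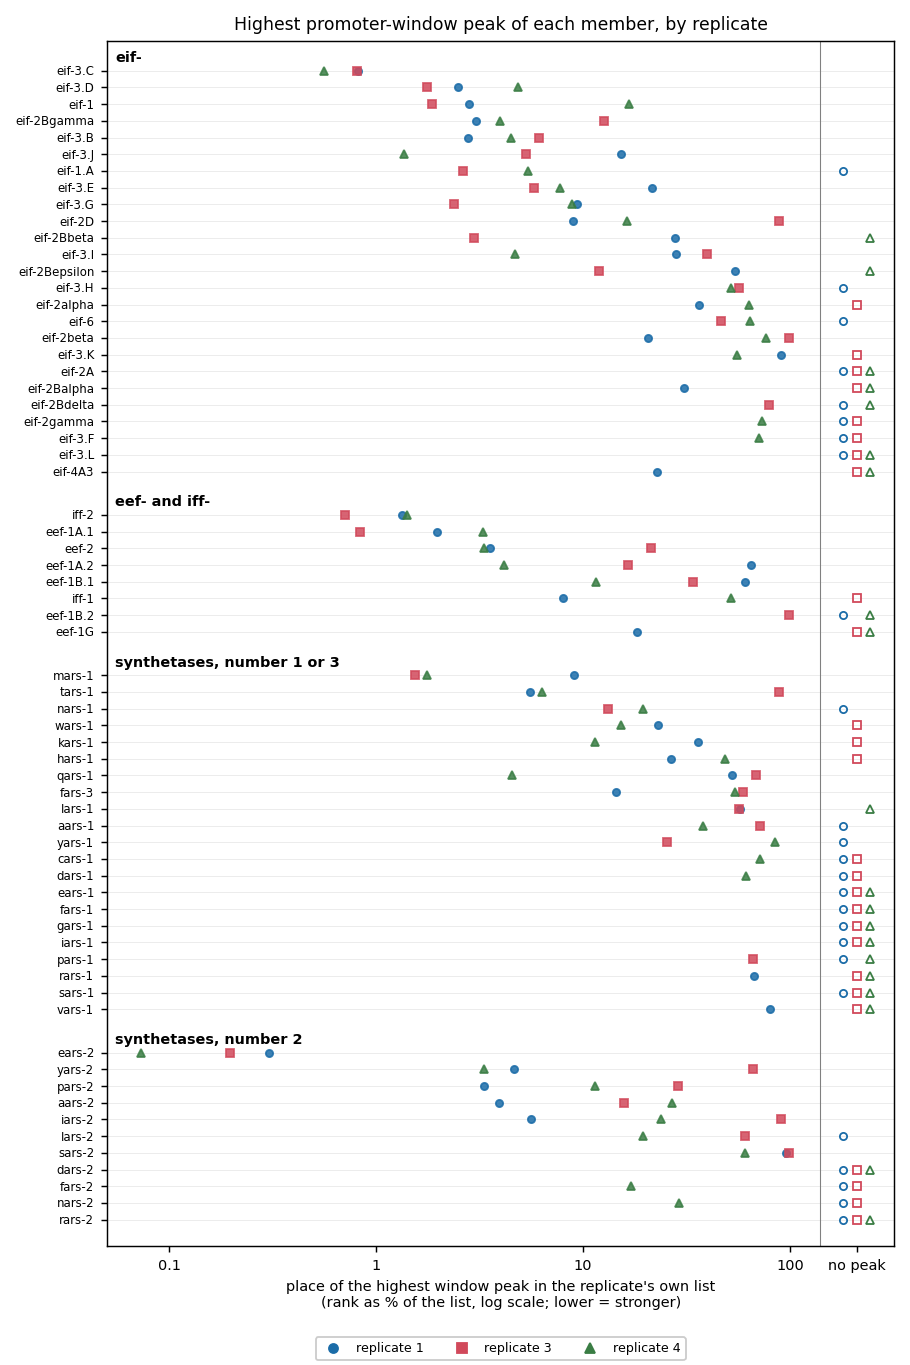
Place of each member's highest window peak in the list of each replicate (x axis, rank as % of the list, log scale, lower is stronger), with members grouped by symbol down the page. Symbols at the right mark replicates without a window peak, and ears-2 stands left of all other members in each replicate.

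Among the genes with an eif- symbol, 18 of 25 had a pooled window peak (72.0%), against 37.4% of other coding genes. In at least 1 replicate 9 of the 25 (36.0%) were among the 1000 highest, against 5.41%. The 11 genes for eIF3 subunits supplied all 3 optimal peaks of the eif- genes. Of these 11 genes, 8 had a pooled window peak (72.7%), and their median percentile was 95.7 in the pooled list and 92.6 ± 3.60 over replicates (SD, n = 3). The peak of eif-3.C, a core subunit, had signals of 63.8, 53.5 and 145 in replicates 1, 3 and 4, at ranks 215, 238 and 169. Its pooled peak (signal 264, rank 176) had its summit 250 bp upstream of the annotated 5′ end. The place of eif-3.C thus varied little between replicates, and its summits lay between 224 and 251 bp upstream in the 3 lists. Another coding gene on the same strand ends within 500 bp upstream of eif-3.C, as for 17 of the 65 members and 3609 of the 19920 other coding genes.

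The peak of eif-3.D, another eIF3 subunit gene, had signals of 36.0, 37.0 and 51.1 in replicates 1, 3 and 4, at ranks 654, 517 and 1457. In the pooled list it stood at rank 493 with a signal of 138. The summit was 160 bp upstream of eif-3.D and 154 bp upstream of R08D7.4, and so lay between both genes. The peak assigned to eif-3.J was less even, with signals of 22.4, 28.0 and 85.3 and ranks of 4029, 1555 and 412 in the same replicates. Its pooled signal was 132, at rank 527. The pooled summit lay far upstream, at 719 bp, and the replicate summits at 689, 755 and 882 bp. At eif-3.B, a core eIF3 subunit gene, the peak had ranks of 732, 1799 and 1344 in these replicates, and was not in the optimal list. The gene eif-3.L, also for an eIF3 subunit, had no window peak in any list.

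Other initiation factors followed no single pattern. All 3 genes for the subunits of eIF2 had a pooled window peak, against 37.4% of other coding genes. None was among the 1000 highest in the pooled list, against 3.37%, or in any replicate, against 5.41% in at least 1. With 3 genes, a count of none cannot be set apart from these shares. The pooled ranks were 10378 for eif-2beta, 18273 for eif-2gamma and 22706 for eif-2alpha. No replicate had a summit within 100 bp of the pooled summit at eif-2gamma or eif-2alpha, and 1 had one at eif-2beta. Of the 5 genes for eIF2B subunits, 4 had a window peak in replicate 1 and also in replicate 3, while replicate 4 had 1, against 36.2%, 39.1% and 37.0% of other coding genes. In the pooled list eif-2Bgamma alone of these had one, so that in replicate 4 and in the pooled list the share (20.0%) was below that of other coding genes. The peak of eif-2Bgamma (pooled signal 118, rank 630) ranked 803, 3740 and 1196 in replicates 1, 3 and 4, with summits 949, 867 and 766 bp upstream. Its pooled summit lay 758 bp upstream, inside the small nuclear RNA gene sup-39, the non-coding gene C15F1.14 and an intron of C15F1.5. It was the only pooled window peak of a member within 200 bp of a tRNA, snoRNA, snRNA or rRNA gene, as were those of 163 other coding genes (2.19%).

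A pair of small scanning factors had strong peaks in part of the replicates. For eif-1, which helps to select the start codon, ranks were 740, 550 and 5019 in replicates 1, 3 and 4, with summits 450, 211 and 396 bp upstream. The pooled summit lay 450 bp upstream, so that of replicate 3 was elsewhere. The pooled summit was 9 bp from a 5′ end of vps-24, in the 5′ UTR annotated for that gene. For eif-1.A there was no window peak in replicate 1, while ranks were 775 in replicate 3 and 1621 in replicate 4. The gene eif-2D, whose product can load tRNA on ribosomes in other species, differed strongly in place, with ranks of 2368, 26028 and 4904. Signals at eif-2D were 25.4, 11.9 and 36.0, so the value of replicate 3 was near the lowest signal of its list, 11.1.

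Of the 4 groups of symbols, the elongation genes had the largest share with a pooled window peak, 7 of 8 (87.5%), against 37.4% of other coding genes. The lead over the synthetase genes numbered 2, 9 of 11, was less than 1 gene. The elongation genes had a median percentile of 88.9 in the pooled list and of 90.6 ± 4.49 over replicates (SD, n = 3). At iff-2, 1 of the pair of eIF5A genes, signals were 47.6, 56.5 and 83.5 in replicates 1, 3 and 4, at ranks 350, 208 and 424. Its pooled peak (signal 187, rank 306) had its summit 41 bp upstream of the gene. The second eIF5A gene, iff-1, had signals of 26.1 in replicate 1 and 24.3 in replicate 4, no window peak in replicate 3 and a pooled rank of 15731. In each list with a peak at both, iff-2 ranked far above iff-1.

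The 2 genes for eEF1A differed as well. Signals at eef-1A.1 were 39.4, 53.0 and 58.0, at ranks 515, 245 and 984, and all 3 were among the 1000 highest of their lists. The last was just inside that bound, which lay at a signal of 57.6 in replicate 4. The pooled summit of eef-1A.1 (signal 141, rank 478) was 392 bp upstream of the gene, but 149 bp upstream of rfc-4, a clamp loader gene, and 19 bp from the 5′ end of the microRNA gene cel-mir-5549. At eef-1A.2, the only member on chromosome X, ranks were 17171, 4863 and 1242 and the pooled rank was 1755. For eef-2, which encodes the translocation factor, signals were 32.1, 20.1 and 57.8 and ranks 935, 6286 and 997. Its pooled summit (signal 111, rank 703) lay 42 bp inside the gene, in the 5′ UTR. In the pooled list the eEF1B and eEF1G genes, for the exchange factor of eEF1A, had weaker peaks than eEF1A and eEF2 genes, or none. The pooled ranks were 8838 for eef-1B.1 and 26685 for eef-1B.2, and eef-1G had no pooled window peak. In replicate 1, eef-1G had a peak at rank 4808 and eef-1B.1 at rank 15974, both above eef-1A.2. In replicate 4 eef-1B.1 ranked 3485.

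**Figure D3:**
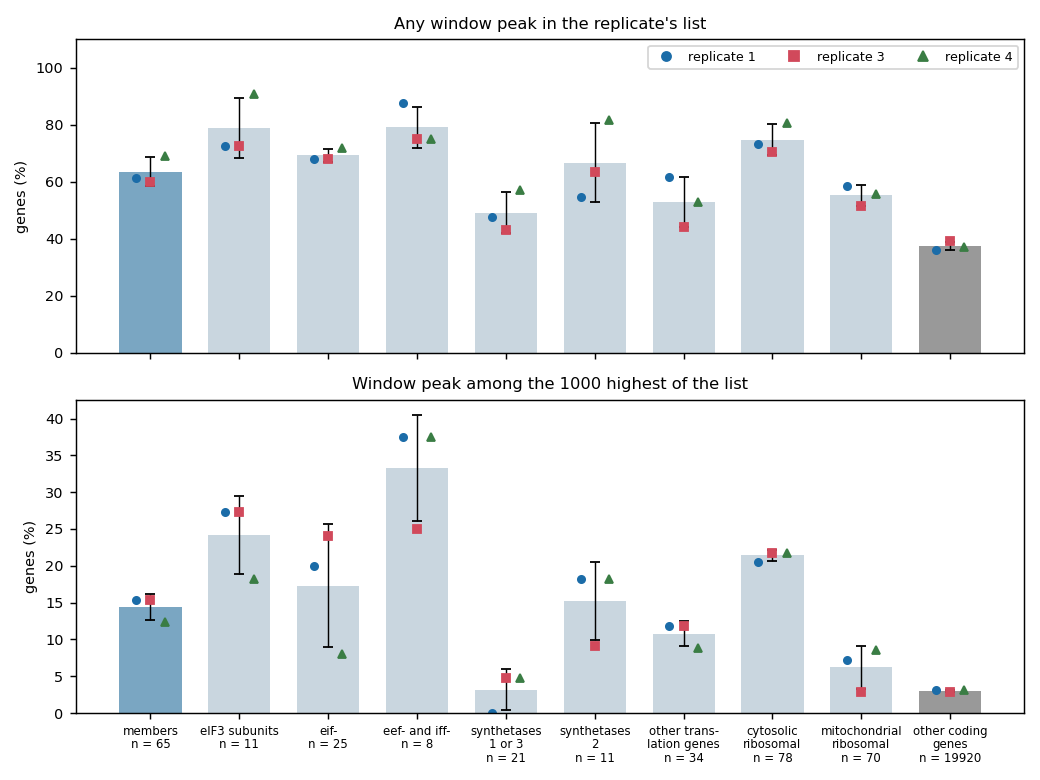
Share of genes (y axis, %) with any window peak (upper panel) or with a window peak among the 1000 highest (lower panel) of each replicate's list. Bars are means over 3 replicates, error bars SD and symbols single replicates; groups overlap where eIF3 genes are also eif- genes, and synthetases numbered 1 or 3 lie at 3.17% in the lower panel, near the 3.03% of other coding genes.

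Synthetase genes are given by the number in their symbol. Of those numbered 1 or 3, 8 of 21 had a pooled window peak (38.1%), against 37.4% of other coding genes, and none was in the optimal list. In the replicates' own lists their shares were higher, 47.6% in replicate 1, against 36.2%, 42.9% in replicate 3, against 39.1%, and 57.1% in replicate 4, against 37.0%. The mean was 49.2% ± 7.27, against 37.4% ± 1.47 of other coding genes (SD, n = 3 each), and 23.8% had no window peak in any replicate, against 36.0%. Their median percentile was 31.3 in the pooled list, the level of no peak, and 31.9, 30.4 and 70.1 in replicates 1, 3 and 4. A window peak was present at 10, 9 and 12 of the 21 in these replicates. The median gene thus had a peak in replicate 4 alone, though the counts differed by few genes. In the 3 replicates 0, 1 and 1 of them were among the 1000 highest, a mean of 3.17% ± 2.75 (SD, n = 3), against 3.03% ± 0.134 of other coding genes. Of the 11 numbered 2, 9 had a pooled window peak (81.8%), against 37.4% of other coding genes, with a median percentile of 80.3 there and of 71.6 ± 12.9 over replicates (SD, n = 3). Their shares were 54.5%, 63.6% and 81.8% in replicates 1, 3 and 4, a mean of 66.7% ± 13.9 (SD, n = 3), so in replicate 1 they lay close to the 47.6% of synthetase genes numbered 1 or 3. The difference between these sets of 21 and 11 genes was not tested.

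The strongest peak of any member was that of ears-2, whose product RefSeq names as a mitochondrial glutamyl-tRNA synthetase. Signals were 117, 111 and 356 in replicates 1, 3 and 4, at ranks 80, 58 and 22, so ears-2 was among the 100 highest peaks of each list. The pooled peak (IV, 390338 to 390680, signal 579, rank 40) had its summit 31 bp upstream of ears-2. The same summit was 61 bp upstream of uncp-18, which runs the other way, so the summit lay in the short gap between these genes while the peak reached into both. In replicate 1 the summit was 53 bp upstream of ears-2 and in replicate 3 it was 16 bp upstream. Its partner in the naming, the glutamyl-tRNA synthetase gene ears-1, had no window peak in any list.

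Among the other synthetase genes numbered 2, yars-2 for tyrosine ranked 1225, 19580 and 994 in replicates 1, 3 and 4, and pars-2 for proline ranked 874, 8486 and 3425. At yars-2 the signals were 29.7, 13.7 and 57.8, and its pooled summit lay 12 bp upstream. The pooled summit of pars-2 lay 775 bp upstream, in the 3′ UTR annotated for sygl-1. At iars-2, for isoleucine, signals were 28.3, 11.7 and 32.2 and ranks were 1483, 26740 and 7149. These peaks had summits 21 and 85 bp downstream of the 5′ end in replicates 1 and 3 and 259 bp upstream in replicate 4. The pooled summit was elsewhere, 985 bp upstream, in a coding exon of C25A1.16. In these 3 genes the value of replicate 3 was the lowest in place. Its summit there lay downstream of the nearest 5′ end, by 195 bp at yars-2, 88 bp at pars-2 and 85 bp at iars-2. The pooled summits lay upstream, so these low places were those of other summits.

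Of the synthetase genes numbered 1 or 3, mars-1 for methionine had the highest pooled signal, 119 at rank 618. Its signals were 25.4, 38.9 and 75.8 in replicates 1, 3 and 4, at ranks 2394, 455 and 528, with the pooled summit 325 bp upstream. Next came tars-1 for threonine, with signals of 28.4, 11.8 and 47.4 and ranks of 1466, 26208 and 1900. The pooled tars-1 summit lay in an intron of tars-1 and of kel-1, 124 bp upstream of a 5′ end of kel-1. In replicate 3 the summit lay elsewhere, 561 bp downstream of the nearest 5′ end of tars-1. At qars-1 for glutamine, the signals were 15.8, 13.5 and 52.1 and the ranks 13799, 20183 and 1367. These belonged to separate peaks, at 15011105 to 15011508, 15012057 to 15012546 and 15013219 to 15013682 on chromosome IV. Only the peak of replicate 4 held the pooled summit, so the ranks do not compare 1 site between replicates. No list held a window peak at dars-2, ears-1, fars-1, gars-1 or iars-1, which encode synthetases for aspartate, glutamate, phenylalanine, glycine and isoleucine, nor at rars-2 and sars-1. With eif-3.L these were all 8 members without a window peak in the pooled list and the 3 replicate lists, while eif-2A had one in the pooled list alone. The compartment could be read from the RefSeq product of 14 synthetase genes, and 2 of 4 named mitochondrial and 5 of 10 named cytoplasmic had a pooled window peak, against 37.4% of other coding genes. These are too few genes to set apart from that share.

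**Figure D4:**
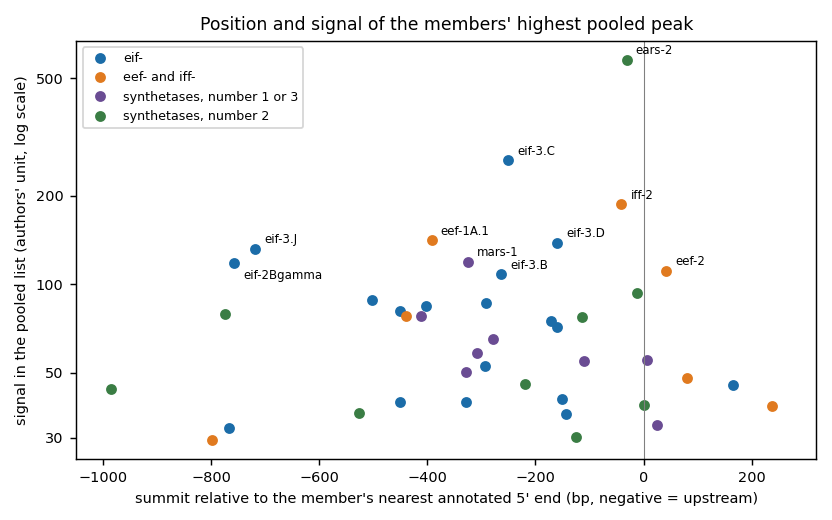
Signal of each member's highest pooled window peak (y axis, authors' unit, log scale) against the distance of its summit to the nearest annotated 5′ end of that gene (x axis, bp, negative is upstream), coloured by group of symbols for the 42 members with such a peak. The strongest, at ears-2, lies 31 bp upstream, while strong peaks also lie 719 bp and 758 bp upstream at eif-3.J and eif-2Bgamma.

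Summits lay at similar distances from the 5′ end in members and in other coding genes. Of the 42 pooled window peaks of members, 35 lay upstream of the nearest 5′ end of the member (83.3%), against 83.2% for the 7448 other coding genes with such a peak, and the median summit was 270 bp upstream, against 297 bp. The 42 members had 42 distinct peaks, so no pair of members shared one. A summit within 100 bp was found in all 3 replicate lists for 12 of the 42, in 2 lists for 13, in 1 list for 10 and in no list for 7. By annotation, 25 of the summits lay outside all annotated genes, 7 in introns of coding genes, 5 in 5′ UTRs, 3 in coding exons and 2 in 3′ UTRs. Neither the summit matches nor these classes were counted for other coding genes, so they describe the members only.

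Members often stood close to other genes, and this bears on which gene a peak belongs to. At 21 of the 42 members the pooled summit also lay in the window of another coding gene, against 27.6% of other coding genes with a peak. The nearest coding 5′ end was the member's own at 35 of the 42, and the nearest 5′ end of any class at 32. For the highest peaks of other coding genes these counts are not given, so they cannot be called usual or unusual. When a peak counted only for the coding gene with the nearest 5′ end, 36 members kept a pooled window peak (55.4%), against 32.1% of other coding genes, since a member could still have a weaker peak of its own. The optimal list then gave 4 members, without eef-1A.1 and eif-3.D. Those among the 1000 highest in every replicate fell to 2, eif-3.C and iff-2. Members had a median of 2 annotated 5′ ends and other coding genes 1, with a mean window of 1569 bp and 1459 bp. Among genes with 1 annotated 5′ end, 19 of 32 members had a pooled window peak (59.4%), against 31.1%. The part of neighbouring genes in the counts was not tested beyond these settings.

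Chromosomes also differed in how often coding genes had a peak. On chromosome I, which holds 21 members, 17 had a pooled window peak, against 47.1% of its other coding genes. The counts were 9 of 15 on chromosome II, against 36.3%, 8 of 10 on chromosome IV, against 36.8%, and 1 of 1 on chromosome X, against 33.9%. On chromosome III 5 of 11 members had one, against 49.3%, and on chromosome V 2 of 7, against 28.4%. On III and V the members' counts were thus near the level of the other genes there.

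Agreement in rank between replicates is given as a description across genes. Spearman's rho of highest window signal across the 65 members was 0.556 for replicates 1 and 3, 0.643 for replicates 1 and 4 and 0.656 for replicates 3 and 4. Across the 19920 other coding genes it was 0.335, 0.405 and 0.378. Genes without a peak were tied at the bottom, and more of the other coding genes were among these, so the coefficients describe these lists only. The replicates share strain, control alignment and gene models.

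At least 1 searched motif was present at 12 of the 42 pooled summits of members. No such combined count is given for other coding genes, so only single motifs are compared. Within 50 bp of the summit, GAGAGA was present at 6 (14.3%), against 8.17% of the 6451 distinct window peaks of other coding genes. AGATAA was present at 3 (7.14%), against 5.58%, and among pooled peaks in the 1000 highest at 2 of 10, against 1.84% of 489 peaks of other coding genes. GCGCGC was present at 3 (7.14%), against 3.18%. GTTCGA, part of the internal promoter of tRNA genes, was present at 1, at lars-2, against 3.74%. The E-box CACGTG was at 0 members, against 1.94%, and TTGCATCA at 0, against 0.512%. Median GC content within these 101 bp was 39.6% at members and 37.6% at other coding genes, and among pooled peaks in the 1000 highest it was 42.1% at 10 members and 49.5% at 489 peaks of other coding genes. With so few members, counts this small are a description of these windows.

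Other genes of protein synthesis varied in how often they had a peak. The shares of other coding genes to set beside them are 37.4% for a pooled window peak, 2.07% for an optimal peak and 1.33% for the 1000 highest in every replicate. Of 34 further translation genes, among them cap-binding, poly(A)-binding, release and mTOR-pathway factors, 17 had a pooled window peak and 3 an optimal peak (8.82%), and 2 were among the 1000 highest in every replicate (5.88%). Those 3 were ifet-1, a partner of the cap-binding protein, with pooled rank 149, the release factor gene erfa-3 at rank 197 and abcf-2 at rank 479. The peak of ifet-1 has the same rank as that of rps-1, since both genes have it in their windows. Of 78 genes for cytosolic ribosomal proteins 66 had a pooled window peak (84.6%) and 13 an optimal one (16.7%), and 8 were among the 1000 highest in every replicate (10.3%). Of 70 genes for mitochondrial ribosomal proteins the counts were 41 (58.6%) and 4 (5.71%), and 1 was among the 1000 highest in every replicate (1.43%). In single replicates 7.14%, 2.86% and 8.57% of the mitochondrial ribosomal genes were among the 1000 highest, in replicates 1, 3 and 4. The shares of other coding genes were 3.06%, 2.88% and 3.14%, so replicate 3 alone was at their level. The differences between these groups were not tested.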

How the data were processed

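Peak lists from chromatin immunoprecipitation of BED-3::GFP embryos were used in the form the authors deposited, with coordinates on ce11 per the labels. Neither aligner nor peak caller, read length or read depth was given in the sources used here, so precision is given by replicates and gene counts. Per the deposited file listing, 1 control alignment served all lists. The signal per peak and the −log10 q per peak are the authors' deposited values; signal was used to rank peaks within a list, and −log10 q was not used. Deposited start, end and summit offset gave positions, printed counted from 1. Gene models came from Ensembl release 115 and product names and sequence from RefSeq, both WBcel235. Python 3.11.15, NumPy 2.4.6, pandas 2.3.3, SciPy 1.17.1 and Matplotlib 3.10.9 were used, and the assignment of peaks to windows was tested on simulated data. Shares over 3 replicates are given as mean ± SD, and the labels do not say whether these biological replicates came from separate cultures.

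The design has 1 group, so no p-value was computed. The members and lists were chosen with earlier results of these data known. Genes named by rule were those with an optimal peak, those among the 1000 highest in every replicate, the 3 with the highest pooled signal in each of 4 groups of symbols, the 3 whose place differed most among members with a peak in every replicate, and up to 6 without any window peak. Other members and neighbouring genes named were chosen after their values were seen. Of 35 further translation symbols 34 matched a coding gene. Alternatives varied the window, the 5′ ends, the assignment of peaks, the depth and the list.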

Additional observations from a re-analysis of the deposited data

How the results depend on the processing

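The count of members with a pooled window peak (42) stayed within 1.5 times under its 11 alternatives, between 32 and 48, where 32 counts 48 members without a same-strand gene ending within 500 bp upstream. The count with an optimal peak (6) ranged from 4 to 7 over windows, 5′ ends, assignments and removal of peaks at small RNA genes, and was 2 in the optimal list when only its 294 highest peaks were read, by construction a shorter list. The count among the 1000 highest in every replicate (4) was 2 both when a peak counted only for the coding gene with the nearest 5′ end and when it counted only for the gene of any class with the nearest 5′ end, since the summits at eef-1A.1 and ears-2 then counted for a neighbour in at least 1 replicate. It was 3 at the 500 highest peaks and 6 at the 2000 highest, and 5 to 6 when 1 replicate was left out of the requirement. The median percentile of members (76.8) was 83.6 without genes that have a same-strand gene ending within 500 bp upstream and 66.8 in replicate 3's own list, and the cause was not tested. In each of these settings the members' share or median was above that of other coding genes. No paired analysis was possible because the series has 1 group and no contrast. Read depth was not analysed, so a gene without a window peak is a gene without a called peak, not one shown to lack signal.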
